A study of Mus musculus with 8 samples.

Results

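The genes considered here are 32 genes of cholesterol synthesis, uptake and efflux. They comprise 20 synthesis enzymes, and 12 genes of the SREBP control of the pathway, of sterol transport, storage and uptake, and of efflux under the LXR receptors. They were chosen by function from a list, with earlier results of these data known. The paper already reports *Fdps* as lower in these arrays. The counts below are therefore not those of an independently chosen set. A gene was measured by the probe sets annotated to it alone, and the brightest of these stood for it. Of the 32 genes, 29 had such a probe set, out of 18194 genes on the array. *Acat2*, *Soat1* and *Nr1h2* had none, so no expression value is given for them. RNA came from intact hearts of mouse pups at E18.5, with 5 wild-type and 3 2lox/2lox hearts and 1 Affymetrix array per heart. The 2lox allele is a floxed allele of *Kdm1a* (*Lsd1*), which encodes a histone demethylase. It was left unrecombined, with no Cre, and carries point mutations in the tower domain of the protein. The labels call the 2lox/2lox hearts both hypomorphic and knock-out, although a mutated protein is made, and every cell of the embryo carries the allele. The labels give no sex, litter or strain, and all values are log2 expression levels.

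Cholesterol is built from acetyl-CoA through mevalonate to isoprenoid units, which are joined to farnesyl diphosphate and then squalene. Squalene is closed to lanosterol, and a further series of enzymes converts lanosterol to cholesterol. When sterols in the cell are low, SCAP carries the SREBP factors out of the endoplasmic reticulum and they activate the genes of synthesis and uptake, while the INSIG proteins hold SCAP back when sterols are high. Oxysterols activate the LXR receptors, which raise the exporters of cholesterol. Farnesyl and geranylgeranyl diphosphate also supply protein prenylation, ubiquinone and dolichol.

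*Kdm1a* itself was lower in the 2lox/2lox hearts. Its brighter probe set lay between 9.44 and 9.55 in them and between 10.26 and 10.36 in the controls, a difference of -0.81. The array medians lay between 5.03 and 5.10. Over all 45101 probe sets, 28 (0.0621%) were higher and 8 (0.0177%) lower at a limma adjusted p under 0.05. Within each group, probe sets had a median SD of 0.10. The control for the 5′ end of 18S ribosomal RNA was dimmer under 2lox/2lox, at 8.45 to 9.07, than in wild-type, at 9.55 to 11.49. *Xist* was high in 2lox/2lox heart 3 and wild-type heart 2, at 10.88 and 10.59, and read 4.61 to 4.94 in the other hearts. The paper describes the hearts as those of wild-type and 2lox/2lox littermates, but the labels do not say which hearts shared a litter. The main fit did not include litter, so p-values measure only the spread between these hearts. In whole hearts, fewer cells of a type and less RNA per cell cannot be told apart.

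The enzymes of synthesis lay lower in the 2lox/2lox hearts, with *Fdps* the gene that passed the test. Of the SREBP control genes 3 of 5 had a negative difference, of the measured transport and uptake genes 2 of 2, and of the LXR and efflux genes 0 of 3. Of 19 measured enzymes, 18 had a negative difference (94.7%), against 52% of all genes. At a limma adjusted p under 0.05, 1 enzyme fell, 0 rose and 18 did not pass. The same test called 0.0385% of all genes lower and 0.11% higher. In 8 enzymes (*Hmgcs1*, *Idi1*, *Fdps*, *Fdft1*, *Msmo1*, *Nsdhl*, *Hsd17b7* and *Sc5d*) every 2lox/2lox heart lay below every wild-type heart. That is 42.1% of the enzymes, where 2.81% of all genes were separated in this direction. No enzyme was separated in the other direction, against 3.16% of all genes. At an unadjusted p under 0.05, 10 enzymes were lower (52.6%), against 4.41% of all genes. No enzyme was higher, against 5.82% of all genes. All enzymes were read in the same hearts, and wild-type heart 5 was the lowest of its group in 12 enzymes. These counts are therefore not counts of independent observations. The median difference was -0.21 over the enzymes and 0.00 over the other 10 genes, of which 5 were negative and none reached an unadjusted p under 0.05. The median over all genes was -0.00. The difference between the enzymes and the other genes was not itself tested. The shares of all genes include dim genes, so they are not a like-for-like background for the enzymes. The plot of differences by pathway order shows both sets.

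**Figure D1:**
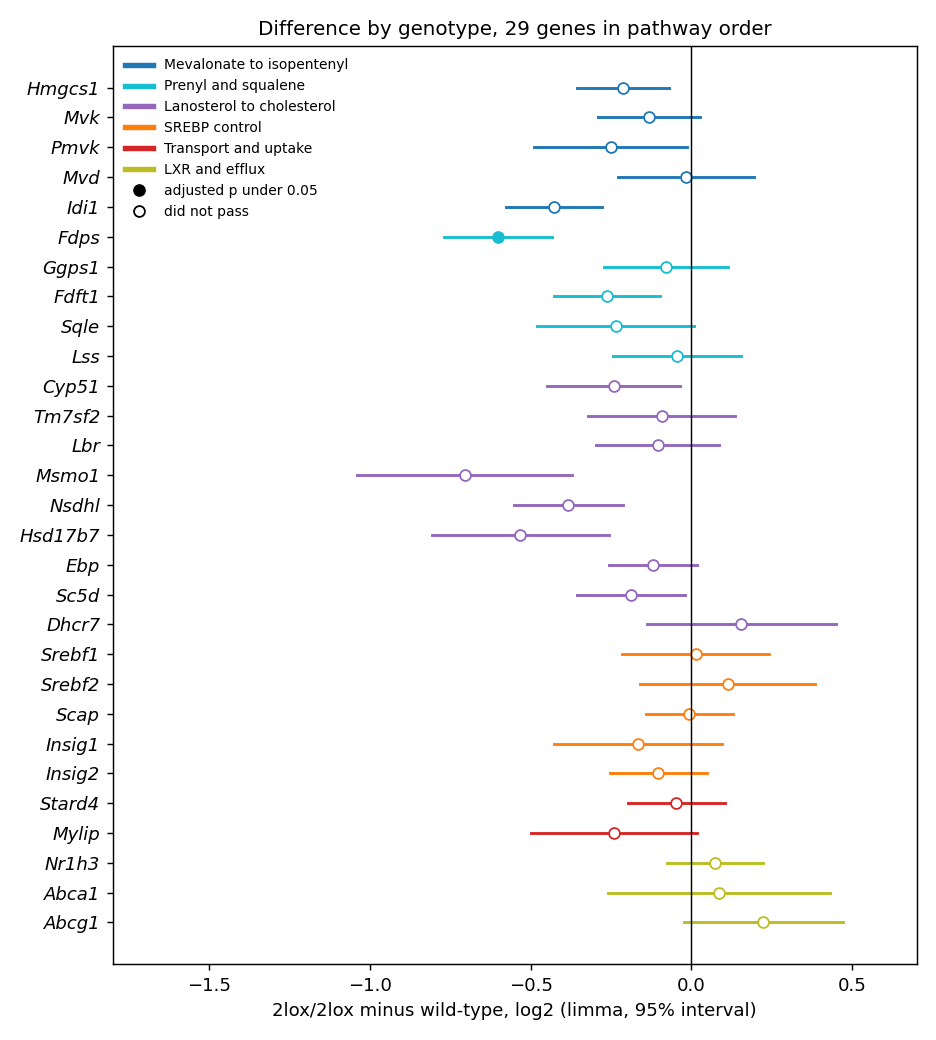
Difference between 2lox/2lox and wild-type hearts for the 29 measured genes in pathway order. The x axis gives the limma difference on the log2 scale with its 95% interval, and colours mark the step of the pathway. The filled point, *Fdps* at -0.60, is the gene with an adjusted p under 0.05. Of the 19 enzymes, 18 lie left of 0, while the 10 genes from *Srebf1* to *Abcg1* lie on both sides of it.

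In the mevalonate steps all 5 measured enzymes had a negative difference, from -0.43 to -0.02, and none passed. *Idi1*, which interconverts the isopentenyl and dimethylallyl diphosphates that all isoprenoids are built from, read 8.95, 9.06 and 8.97 in the 2lox/2lox hearts and 9.47, 9.29, 9.54, 9.41 and 9.41 in the wild-type hearts. All 2lox/2lox hearts lay below the lowest wild-type heart, and they lay close to each other. The group means were 9.00 ± 0.06 (SD, n = 3) and 9.42 ± 0.09 (SD, n = 5), a difference of -0.43 with an SE of 0.07 (limma adjusted p = 0.0794). A second probe set of *Idi1* read 6.91, 7.38 and 6.91 in the 2lox/2lox hearts and 7.55, 7.69, 7.76, 7.67 and 7.51 in the wild-type hearts. The groups were separated there too, with a difference of -0.57 (limma adjusted p = 0.148).

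*Hmgcs1*, the synthase that makes HMG-CoA, was measured by a bright probe set at 10.50, 10.70 and 10.61 in the 2lox/2lox hearts and 10.80, 10.82, 10.89, 10.84 and 10.73 in the wild-type hearts. The groups did not overlap, but wild-type heart 5 and 2lox/2lox heart 2 were nearly level. The difference was -0.21 with an SE of 0.06 (limma adjusted p = 0.292). The name of this probe set marks probes that may match other transcripts. The 3 other bright probe sets of the gene gave -0.29, -0.15 and -0.42, the first of them with overlapping groups. Its dim set gave 0.05.

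*Pmvk*, phosphomevalonate kinase, read 7.22, 7.68 and 7.74 in the 2lox/2lox hearts and 7.85, 7.82, 7.74, 7.80 and 7.77 in the wild-type hearts. Most of its difference of -0.25 came from 2lox/2lox heart 1, and 2lox/2lox heart 3 lay level with the lowest wild-type heart (limma adjusted p = 0.430). *Mvk*, mevalonate kinase, read 7.01, 6.95 and 7.12 in the 2lox/2lox hearts and 7.16, 7.25, 7.16, 7.23 and 7.00 in the wild-type hearts. Only the low wild-type heart 5 made these groups overlap. The difference of *Mvk* was -0.13 (limma adjusted p = 0.550), and -0.24 in its other probe set, where the groups were separated. *Mvd*, the decarboxylase that makes isopentenyl diphosphate, had a difference of -0.02 with a 95% interval of -0.23 to 0.20, and 0.03 in its other set.

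*Fdps*, farnesyl diphosphate synthase, fell. It read 8.79, 8.84 and 9.02 in the 2lox/2lox hearts and 9.48, 9.52, 9.53, 9.58 and 9.33 in the wild-type hearts. Even the highest 2lox/2lox heart lay below wild-type heart 5, the lowest of its group. The means were 8.89 ± 0.12 (SD, n = 3) and 9.49 ± 0.09 (SD, n = 5). The level fell by 0.60 on the log2 scale, with an SE of 0.08 and a 95% interval of -0.77 to -0.43, which is a linear change of -34.1% (limma adjusted p = 0.0236). A second *Fdps* probe set averaged 3.80 in each group, below the lower quartile of all values of 4.21, and gave -0.00. The call of *Fdps* held without 2lox/2lox heart 3 and without wild-type heart 5. Without any other single heart its limma adjusted p was 0.0625 to 0.116, with differences of -0.67 to -0.55 over all such fits. The call was also lost with the RNA measure described below as a covariate (-0.49, limma adjusted p = 0.519), with the mean of both probe sets (-0.30, limma adjusted p = 0.130) and with the replicate number as a block (-0.62, limma adjusted p = 0.203).

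The remaining prenyl and squalene enzymes did not pass, and all had negative differences. *Fdft1*, squalene synthase, read 9.02, 9.00 and 9.03 in the 2lox/2lox hearts and 9.20, 9.34, 9.40, 9.35 and 9.10 in the wild-type hearts. The 2lox/2lox hearts were nearly identical and all lay below wild-type heart 5. The difference was -0.26 with an SE of 0.07 (limma adjusted p = 0.266). This brightest set also has probes that may match other transcripts. Its other bright probe set gave -0.28 with overlapping groups, and a pair of sets near 5 gave 0.00 and -0.08. *Sqle*, the squalene epoxidase, read 8.59, 8.63 and 8.41 in the 2lox/2lox hearts and 8.72, 9.03, 8.88, 8.76 and 8.50 in the wild-type hearts. Wild-type heart 5 lay inside the 2lox/2lox range, and the difference was -0.24 with a 95% interval of -0.48 to 0.01 (limma adjusted p = 0.473).

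*Ggps1*, which extends farnesyl to geranylgeranyl diphosphate and so leads away from sterols, read 7.94, 8.09 and 8.12 in the 2lox/2lox hearts and 8.34, 8.11, 8.15, 7.93 and 8.11 in the wild-type hearts. The groups overlapped fully, with a difference of -0.08 (95% interval -0.27 to 0.11). Its 3 other probe sets gave -0.09, -0.34 and -0.24. *Lss*, which closes squalene epoxide to lanosterol, had a difference of -0.04 (95% interval -0.24 to 0.15). The probe sets of *Lss* disagreed, since a dimmer one gave -0.33 with separated groups (limma adjusted p = 0.311) and the dimmest gave 0.00.

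**Figure D2:**
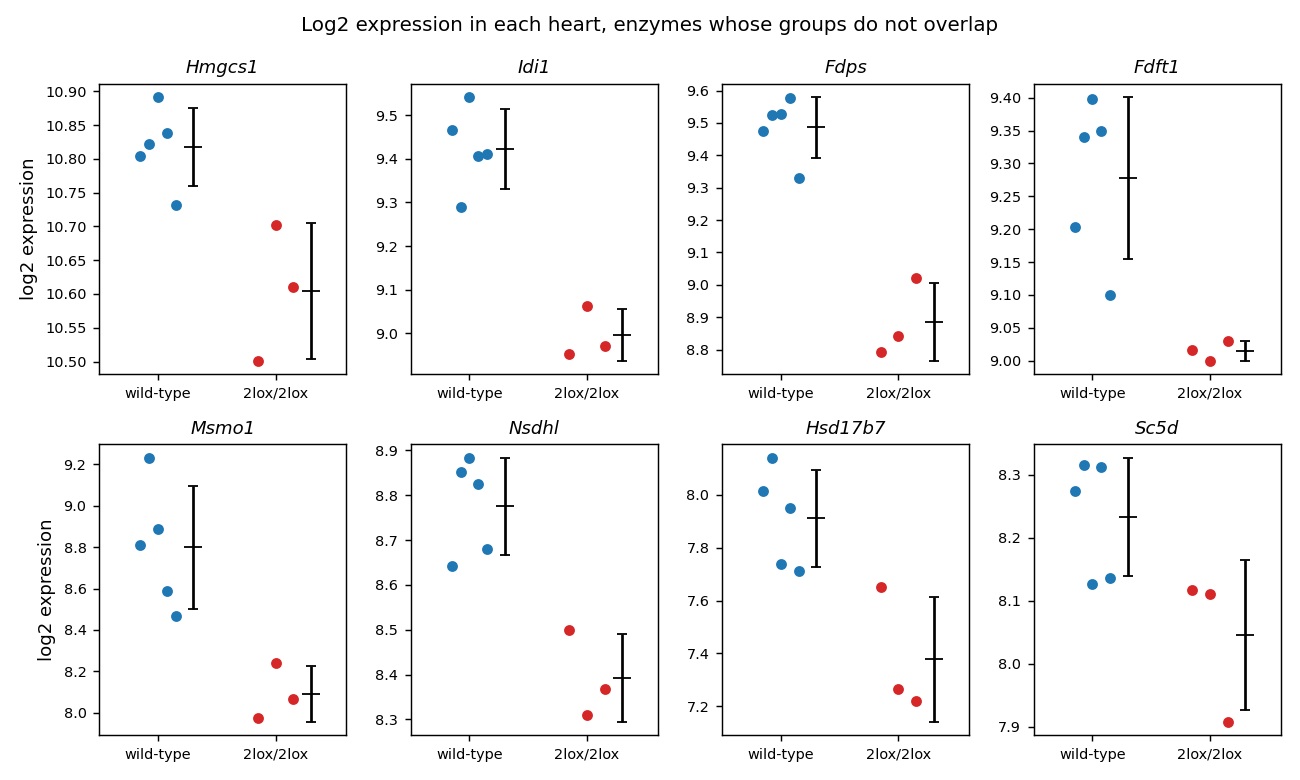
Log2 expression in each heart for the 8 enzymes whose groups do not overlap, each panel with its own y axis. Each point is a heart, blue for the 5 wild-type and red for the 3 2lox/2lox, with the mean ± SD beside the points. In every panel the highest 2lox/2lox heart lies below the lowest wild-type heart, with the widest differences in *Msmo1* (-0.71), *Fdps* (-0.60) and *Hsd17b7* (-0.53).

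Among the 9 enzymes between lanosterol and cholesterol, 8 had a negative difference and none passed. The largest differences lay in the enzymes that remove the methyl groups at carbon C-4 of the ring. *Msmo1*, the methylsterol monooxygenase that starts this removal, read 7.97, 8.24 and 8.07 in the 2lox/2lox hearts and 8.81, 9.23, 8.89, 8.59 and 8.47 in the wild-type hearts. The groups were separated, and the wild-type hearts were widely spread. The means were 8.09 ± 0.14 (SD, n = 3) and 8.80 ± 0.29 (SD, n = 5), and the difference of -0.71 was the largest among the 29 genes, with an SE of 0.15 (limma adjusted p = 0.184). A second *Msmo1* set near 4 gave 0.02.

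*Nsdhl*, the X-linked sterol dehydrogenase and decarboxylase of the next step, read 8.50, 8.31 and 8.37 in the 2lox/2lox hearts and 8.64, 8.85, 8.88, 8.82 and 8.68 in the wild-type hearts. No heart of either group reached the range of the other. The difference was -0.38 with an SE of 0.08 (limma adjusted p = 0.153), and -0.39 with a sex score as a covariate (limma adjusted p = 0.119). *Hsd17b7*, the sterone reductase that completes the removal, read 7.65, 7.26 and 7.22 in the 2lox/2lox hearts and 8.01, 8.14, 7.74, 7.95 and 7.71 in the wild-type hearts. Here 2lox/2lox heart 1 lay just under wild-type heart 5 and the other 2lox/2lox hearts lay well below. The difference was -0.53 with an SE of 0.12 (limma adjusted p = 0.219), in a set whose probes may match other transcripts. 2 other bright probe sets of the gene gave -0.53 with separated groups and -0.49 with overlapping groups. Its dim set gave -0.05.

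*Cyp51*, the lanosterol demethylase that acts on carbon C-14, read 7.84, 7.73 and 7.54 in the 2lox/2lox hearts and 7.91, 8.16, 7.94, 7.92 and 7.79 in the wild-type hearts. 2lox/2lox heart 1 lay above wild-type heart 5, so the groups overlapped. The difference was -0.24 (limma adjusted p = 0.382), and -0.32 and -0.12 in its other sets. *Tm7sf2* and *Lbr*, both sterol C-14 reductases and the latter also a protein of the inner nuclear membrane, had differences of -0.09 and -0.11 with overlapping groups. *Ebp*, the X-linked sterol isomerase, had -0.12 with a 95% interval of -0.26 to 0.02.

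*Sc5d*, the sterol C-5 desaturase, read 8.12, 8.11 and 7.91 in the 2lox/2lox hearts and 8.27, 8.32, 8.13, 8.31 and 8.14 in the wild-type hearts. The groups were barely separated, with 2lox/2lox hearts 1 and 2 next to wild-type hearts 3 and 5. The difference was -0.19 (limma adjusted p = 0.404), and -0.25 and 0.00 in its other sets, where the groups overlapped. *Dhcr7*, the reductase that makes cholesterol from 7-dehydrocholesterol, was the enzyme with a positive difference. It read 7.72, 7.64 and 7.06 in the 2lox/2lox hearts and 7.33, 7.42, 7.39, 7.24 and 7.23 in the wild-type hearts. The 2lox/2lox hearts stood on both sides of the wild-type range, hearts 1 and 2 above it and heart 3 below it. The difference of *Dhcr7* was 0.15 with a 95% interval of -0.14 to 0.45, and -0.20 with that RNA measure as a covariate. It was 0.36 without 2lox/2lox heart 3 (limma adjusted p = 0.0504) and 0.032 without heart 1.

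Promoter windows are shown for the 6 separated enzymes that have one, because these genes lay lower together. The windows run from 250 bases before to 50 after the gene start, on the gene's strand, from RefSeq on GRCm38.p6. A window was found for 27 of the 32 genes, and for 17 enzymes, counting *Acat2*, *Soat1* and *Nr1h2*, which have no expression value here. *Fdps*, *Fdft1*, *Sqle*, *Stard4* and *Abcg1* had no entry. The search covered both strands for the core of the sterol regulatory element, TCACNCCAC, for the CCAAT box, CCAAT, and for the GC box, GGGCGG. Capitals mark every match, and a match on the opposite strand reads as its reverse complement. No matches of different motifs overlapped. The windows lie at chr13:119690101-119690400 (plus strand, *Hmgcs1*), chr13:8885356-8885655 (plus, *Idi1*), chr8:64733529-64733828 (minus, *Msmo1*), chrX:72918271-72918570 (plus, *Nsdhl*), chr1:169969156-169969455 (minus, *Hsd17b7*) and chr9:42264251-42264550 (minus, *Sc5d*).
Hmgcs1: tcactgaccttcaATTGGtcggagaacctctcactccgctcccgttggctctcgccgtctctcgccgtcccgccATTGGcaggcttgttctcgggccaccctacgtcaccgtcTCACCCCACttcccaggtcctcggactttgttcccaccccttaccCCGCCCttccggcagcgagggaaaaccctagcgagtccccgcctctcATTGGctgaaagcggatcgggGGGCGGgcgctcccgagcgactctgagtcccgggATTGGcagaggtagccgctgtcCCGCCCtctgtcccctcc
Idi1: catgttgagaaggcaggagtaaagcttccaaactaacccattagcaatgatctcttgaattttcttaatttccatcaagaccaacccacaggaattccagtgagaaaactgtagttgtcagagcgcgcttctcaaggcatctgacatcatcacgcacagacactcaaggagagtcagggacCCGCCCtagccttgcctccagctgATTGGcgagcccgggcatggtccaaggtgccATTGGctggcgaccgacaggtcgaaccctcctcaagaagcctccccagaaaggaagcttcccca
Msmo1: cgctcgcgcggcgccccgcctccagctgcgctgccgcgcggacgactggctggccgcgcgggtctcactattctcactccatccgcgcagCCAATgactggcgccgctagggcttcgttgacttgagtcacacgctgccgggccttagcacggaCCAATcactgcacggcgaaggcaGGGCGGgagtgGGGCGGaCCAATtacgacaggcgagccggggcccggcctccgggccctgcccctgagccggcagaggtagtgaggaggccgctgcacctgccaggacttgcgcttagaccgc
Nsdhl: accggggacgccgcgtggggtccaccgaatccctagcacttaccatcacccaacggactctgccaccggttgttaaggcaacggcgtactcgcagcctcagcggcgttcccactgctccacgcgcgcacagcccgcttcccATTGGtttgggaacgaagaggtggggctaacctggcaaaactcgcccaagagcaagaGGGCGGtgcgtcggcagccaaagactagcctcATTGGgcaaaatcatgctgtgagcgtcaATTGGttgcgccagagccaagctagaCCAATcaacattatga
Hsd17b7: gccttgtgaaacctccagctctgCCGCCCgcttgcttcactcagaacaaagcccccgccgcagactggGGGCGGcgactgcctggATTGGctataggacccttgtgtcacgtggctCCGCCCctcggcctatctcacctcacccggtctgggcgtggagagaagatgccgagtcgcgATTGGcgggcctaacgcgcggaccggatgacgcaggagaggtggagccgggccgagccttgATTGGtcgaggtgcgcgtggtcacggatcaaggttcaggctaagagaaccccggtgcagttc
Sc5d: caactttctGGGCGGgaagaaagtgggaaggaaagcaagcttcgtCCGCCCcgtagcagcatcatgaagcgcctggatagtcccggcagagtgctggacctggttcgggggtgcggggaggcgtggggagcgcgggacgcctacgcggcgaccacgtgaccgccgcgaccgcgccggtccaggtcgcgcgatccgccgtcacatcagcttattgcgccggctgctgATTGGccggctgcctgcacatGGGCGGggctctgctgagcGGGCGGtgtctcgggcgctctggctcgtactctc

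Every one of these 6 windows held at least 1 CCAAT box and at least 1 GC box. The *Hmgcs1* window also held the sterol element core, TCACCCCAC, which begins 137 bases before the start. Over the 17 enzymes with a window, 16 held a CCAAT box (94.1%, all but *Acat2*). This compares with 42.3% of the 9793 array genes that have a window and a mean of at least 5, and with 41.1% of all genes with a window. A GC box was found in 15 enzymes (88.2%), against 68.3% of those array genes and 38.2% of all genes with a window. The sterol element core was found in 1 enzyme (5.88%), against 1.38% of those array genes and 1.44% of all genes with a window. Other spellings of this element and sites outside the windows were not searched, so a missing match does not show that a gene lacks it. Of the 10 genes outside synthesis that have a window, 6 held a CCAAT box, 8 a GC box and none the sterol element core. These matches are descriptions of letters in a short window and not evidence of binding.

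None of the 5 SREBP control genes passed the test. *Srebf2*, the factor most tied to cholesterol synthesis, read 8.81, 8.44 and 8.20 in the 2lox/2lox hearts and 8.53, 8.45, 8.34, 8.23 and 8.31 in the wild-type hearts. Its 2lox/2lox hearts spanned more than the wild-type range on both sides. The difference was 0.11 with a 95% interval of -0.16 to 0.39, and -0.02 in the other probe set. *Srebf1*, the factor most tied to fatty acid synthesis, read 8.83, 8.94 and 8.47 in the 2lox/2lox hearts and 8.79, 8.84, 8.71, 8.58 and 8.74 in the wild-type hearts. These groups overlapped as well, with a difference of 0.01 (95% interval -0.22 to 0.24). *Scap*, the escort of both factors, had a difference of -0.01 (95% interval -0.14 to 0.13).

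*Insig1*, which retains SCAP and is itself a target of SREBP, read 7.33, 7.32 and 6.89 in the 2lox/2lox hearts and 7.50, 7.31, 7.48, 7.12 and 7.33 in the wild-type hearts. Only 2lox/2lox heart 3 lay outside the wild-type range. The difference was -0.17 with a 95% interval of -0.43 to 0.09. *Insig2*, its paralog, had -0.10, and -0.23 and -0.21 in its other sets, and none of these passed.

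For transport and uptake, *Stard4*, a carrier of cholesterol between membranes, was measured by probe sets that disagreed. The brightest gave -0.05 (95% interval -0.20 to 0.10) and another gave -0.00. The set that stood apart read 6.46, 6.97 and 7.50 in the 2lox/2lox hearts and 7.67, 7.45, 7.31, 7.78 and 7.64 in the wild-type hearts, with a difference of -0.59 (limma adjusted p = 0.325). Its 2lox/2lox hearts were far apart, and heart 3 lay inside the wild-type range. *Mylip*, an LXR target that promotes the breakdown of lipoprotein receptors, read 7.38, 7.46 and 7.75 in the 2lox/2lox hearts and 7.80, 7.62, 7.64, 7.72 and 8.07 in the wild-type hearts. 2lox/2lox hearts 1 and 2 lay below the wild-type range and heart 3 within it. The difference was -0.24 with a 95% interval of -0.50 to 0.02 (limma adjusted p = 0.494).

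The efflux genes had positive differences, and none passed. *Abcg1*, an exporter of cholesterol to high-density lipoprotein, read 7.53, 7.55 and 7.41 in the 2lox/2lox hearts and 7.37, 7.33, 7.27, 6.92 and 7.48 in the wild-type hearts. 2lox/2lox hearts 1 and 2 lay above all wild-type hearts and heart 3 below the highest of them. The difference was 0.22 with a 95% interval of -0.02 to 0.47 (limma adjusted p = 0.511), and 0.16 in a dim set. *Abca1*, the exporter that lipidates apolipoproteins, read 9.04, 9.28 and 9.40 in the 2lox/2lox hearts and 9.18, 9.39, 8.85, 8.86 and 9.49 in the wild-type hearts. The groups overlapped fully, and the difference was 0.09 (95% interval -0.26 to 0.43) in the brightest set but -0.28 and -0.05 in the others. *Nr1h3*, which encodes LXR alpha, gave 0.07 (95% interval -0.08 to 0.22) at a level near 5.

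**Figure D3:**
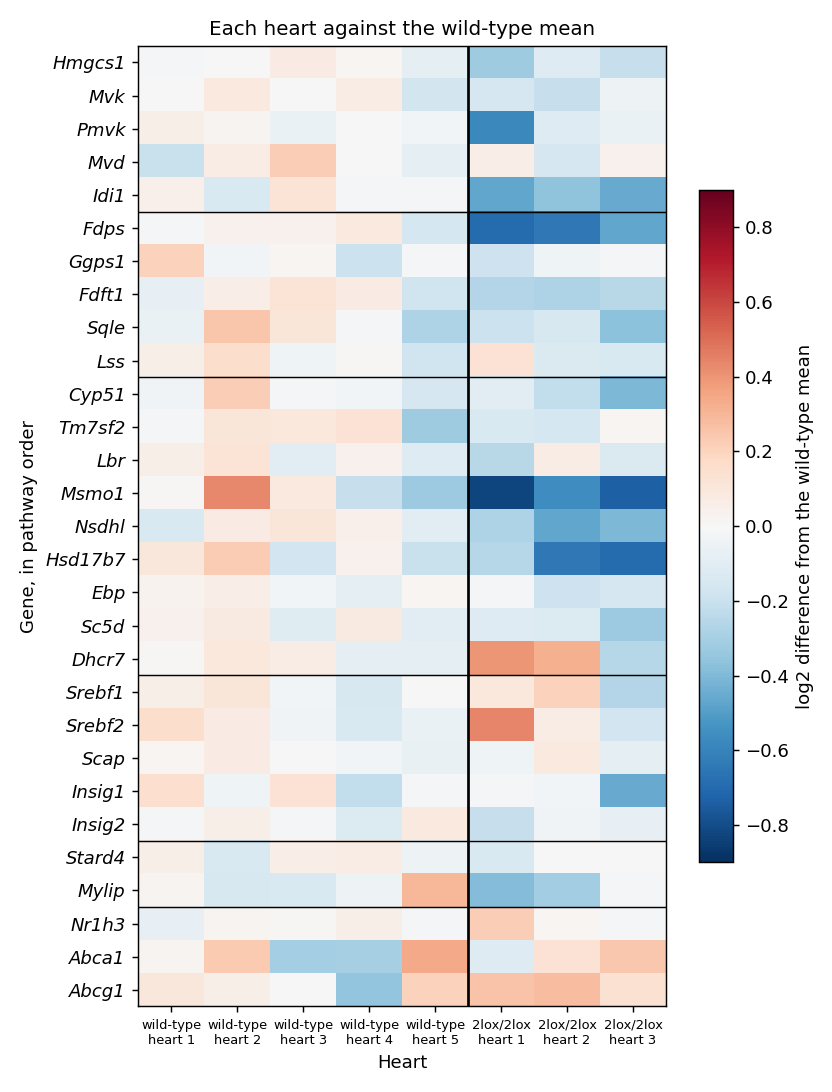
Log2 difference of each heart from the wild-type mean of the gene, for the 29 genes in pathway order. Columns are the 5 wild-type and 3 2lox/2lox hearts, red is above and blue below the wild-type mean, and thin lines part the steps. 2lox/2lox hearts 1, 2 and 3 are blue in 16, 17 and 17 of the 19 enzymes, and wild-type heart 5 is blue in 18. In *Tm7sf2* and *Lss* wild-type heart 5 is the lowest of all hearts. *Dhcr7* is red in 2lox/2lox hearts 1 and 2.

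Seen by heart, lower enzyme levels were found in all 3 2lox/2lox hearts. Hearts 1, 2 and 3 lay below the lowest wild-type heart in 10, 12 and 13 of the 19 enzymes. The mean difference of the enzymes from the wild-type mean was -0.22, -0.22 and -0.27 in these hearts and 0.00, 0.10, 0.03, -0.00 and -0.13 in wild-type hearts 1 to 5. Wild-type heart 5 was the lowest of its group in 12 enzymes and wild-type heart 2 the highest in 10. The steps differed between the 2lox/2lox hearts. The median over the mevalonate enzymes was -0.32, -0.15 and -0.06 in hearts 1, 2 and 3, and over the lanosterol enzymes -0.14, -0.19 and -0.33. So heart 1 was lowest in the early steps and heart 3 in the late ones. Whether this order differs beyond the spread between hearts was not tested.

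Of the 43 probe sets of the enzymes, 37 had a mean of at least 5. Among these, 33 had a negative difference, and in 14 every 2lox/2lox heart lay below every wild-type heart. Of all probe sets, 51.5% had a negative difference and 2.71% were so separated. These shares include dim probe sets, so they are not a like-for-like background for the 37. The 6 dimmer sets had differences of at most 0.12 in size, and none was separated. The plot of all probe sets shows the differences against the level.

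**Figure D4:**
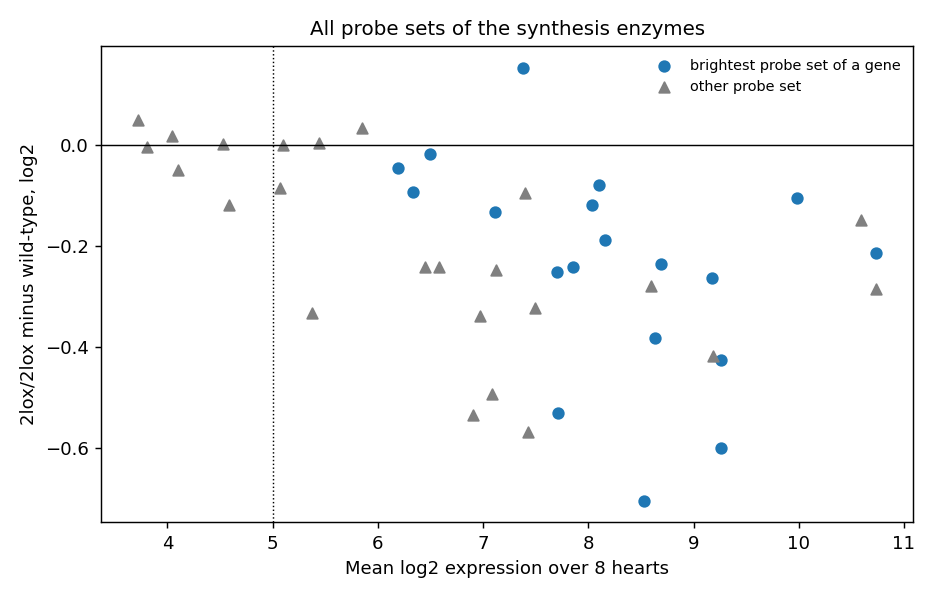
Difference between 2lox/2lox and wild-type hearts for the 43 probe sets of the synthesis enzymes against their mean log2 expression over 8 hearts. Circles are the brightest set of a gene, triangles are its other sets, and the dotted line marks a mean of 5. Right of the line 33 of 37 sets lie below 0, and left of it the 6 sets lie near 0.

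A measure of RNA quality and a cell type list also differed between the groups. Control probe sets at both ends of *Actb* and *Gapdh* give a 3′ minus 5′ value that grows as RNA is degraded. It was 0.52, 0.50 and 0.33 in 2lox/2lox hearts 1, 2 and 3, and the wild-type hearts spanned 0.32 to 0.38. Heart 3, within the wild-type range of this measure, had the lowest mean enzyme difference of the 8 hearts, and also the lowest 18S control, at 8.45. The 18S control was below the wild-type range in all 3 2lox/2lox hearts. The part of RNA quality in the enzyme levels beyond this covariate was not tested. With the measure as a covariate, the median of the enzymes kept its sign and no member passed. All 5 SREBP control genes then had a negative difference, from -0.43 in *Insig1* to -0.059 in *Scap*, with *Srebf1* at -0.21 and *Srebf2* at -0.13. All 15 macrophage markers had a positive difference, with a median of 0.43, and 0 passed the adjusted threshold. At an unadjusted p under 0.05, 11 of the 15 were higher, against 5.82% of all genes. In 5 of the 15 every 2lox/2lox heart lay above every wild-type heart, against 3.16% of all genes. These shares of all genes include dim genes, and the markers are not independent of each other. The mean difference of the 15 markers from the wild-type mean came to 0.29, 0.41 and 0.60 in 2lox/2lox hearts 1, 2 and 3. The wild-type hearts ran from -0.20 to 0.18. The part of macrophages in the enzyme levels was not tested. Of the 11 cardiomyocyte markers 0 passed, with a median of 0.05 and levels that fit the labelled tissue, such as 14.31 in wild-type and 14.36 in 2lox/2lox hearts for *Myh7*. These markers ran from -0.27 in *Nppa* to 0.23 in *Actn2*, with 1 lower and 1 higher at an unadjusted p under 0.05.

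**Figure D5:**
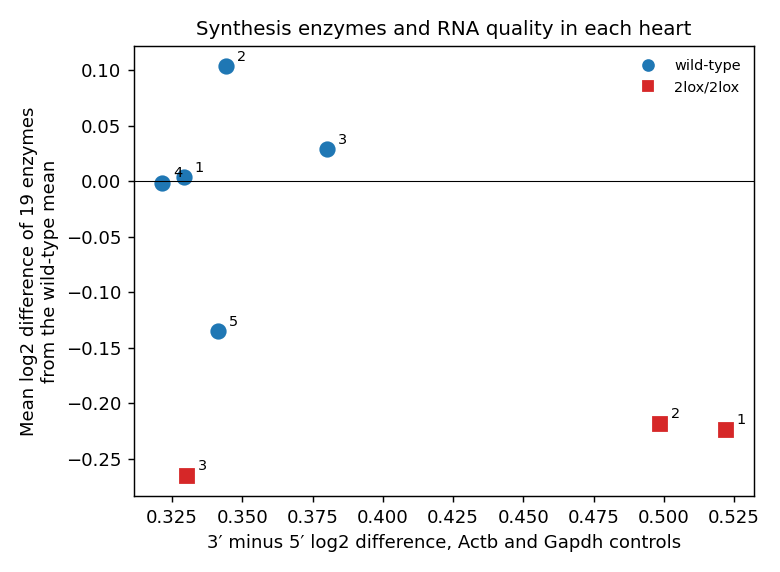
Mean log2 difference of the 19 enzymes from the wild-type mean in each heart, against the 3′ minus 5′ log2 difference of the controls (*Actb* and *Gapdh*). Blue circles are wild-type hearts, red squares 2lox/2lox hearts, and numbers are replicate numbers. 2lox/2lox hearts 1 and 2 lie to the right at 0.52 and 0.50, while 2lox/2lox heart 3 lies at 0.33 among the wild-type hearts and is the lowest at -0.27.

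Neighbouring pathways were described from lists. Of 16 genes tied mostly to fatty acid synthesis under SREBP, none passed, 9 had a negative difference and the median was -0.05. *Fads2*, a fatty acid desaturase, had -0.29 (limma adjusted p = 0.375), *Scd1*, the stearoyl-CoA desaturase, -0.25 (0.334), *Tmem97*, a sterol-responsive membrane protein, -0.19 (0.421) and *Elovl6*, a fatty acid elongase, -0.16 (0.698). The first 3 of these were lower at an unadjusted p under 0.05. The branches that use farnesyl and geranylgeranyl diphosphate, for prenylation, ubiquinone and dolichol, had 12 measured genes of 13 listed, a median of 0.02 and none that passed. *Fntb*, a subunit of protein farnesyltransferase, had 0.17 (limma adjusted p = 0.601), *Dhdds*, of dolichol synthesis, 0.09 (0.680), *Rabggta*, of Rab prenylation, 0.11 (0.692) and *Icmt*, which methylates prenylated proteins, 0.11 (0.754).

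In the list of sterol transfer and storage, 15 of 16 genes were measured, the median was -0.06 and none passed. *Npc2*, which moves cholesterol within lysosomes, had a difference of -0.25 with separated groups (limma adjusted p = 0.338). *Abca7*, a lipid transporter, had 0.26 (limma adjusted p = 0.308), *Osbp*, an oxysterol binding protein, 0.19 (0.490) and *Stard5*, a sterol carrier, -0.17 (0.477).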

How the data were processed

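Affymetrix Mouse430 arrays measured RNA of 8 hearts at E18.5. The authors deposited log2 values for 45101 probe sets, already normalized between arrays. The submitters' processing notes name limma with no version, and how probes were summarized and normalized was not given in the sources used. That step can affect dim probe sets most. Precision is limited by the number of arrays, which have no read depth. No detection calls were used.

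Hearts were grouped by their labels. The difference, 2lox/2lox minus wild-type over all 8 hearts, came from limma 3.58.1 in R 4.3.3, by lmFit and plain eBayes without trend or robust moderation. Two-sided p-values were adjusted by Benjamini-Hochberg across the 45101 probe sets, with a threshold of 0.05. The fit was tested on simulated data. The methods' fold of 1.4 served as an alternative. The platform annotation, updated through a RefSeq table of GRCm38.p6, named 1 gene for 34958 probe sets (99.4% of them found in that table), more than 1 gene for 932, and no gene for 9211. All members with a probe set of their own are named, with up to 4 genes of smallest p from each other pathway list. The members and lists were chosen with earlier results of these data known. The alternatives were an intensity trend, robust moderation, median centring, quantile normalization, leaving out dim probe sets (at least 5 in 3 hearts, or a mean above the median), array weights, a replicate block, a sex score (*Eif2s3y*, *Kdm5d* and *Uty* minus *Xist*) or the 3′ minus 5′ measure as covariates, the mean of a gene's probe sets, and leaving out each heart.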

Additional observations from a re-analysis of the deposited data

How the results depend on the processing

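The median of the synthesis enzymes stayed negative in all 19 alternatives, from -0.25 to -0.17, and that of the other 10 genes lay between -0.07 and 0.03. Enzymes with separated groups numbered 7 to 11 in 15 alternatives, and no member was higher in any of 20. The single call, *Fdps*, depended on the setting. Members called lower numbered 0 with the 3′ minus 5′ RNA measure added as a covariate and with the mean of a gene's probe sets (*Fdps* -0.30, limma adjusted p = 0.130), and 0 to 2 when 1 heart was left out. The 2 calls, *Fdps* and *Idi1* (limma adjusted p = 0.0400), came without 2lox/2lox heart 3. Probe sets past the threshold, 36 in all hearts, numbered 9 with that covariate and 17 to 797 when 1 heart was left out (797 without 2lox/2lox heart 3, 20 without heart 1, 17 without wild-type heart 1, 23 without wild-type heart 2, 3 or 4).

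Whether replicate numbers pair the hearts is not known. Deviations of same-numbered hearts correlated at 0.01, -0.08 and -0.05, and those of differently numbered hearts at -0.12 to 0.13. The same-numbered values lay within the range of the others, so they cannot decide it. The replicate block, over 6 hearts, gave 0 probe sets and 0 members past the threshold, with *Fdps* at -0.62 (limma adjusted p = 0.203), and *Srebf1* at -0.033.

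Small differences changed sign. With the covariate *Srebf1* was -0.21, *Dhcr7* -0.20, *Srebf2* -0.13 and *Nr1h3* -0.014. Without 1 heart at a time, *Srebf1* ranged from -0.083 to 0.15, *Srebf2* from -0.052 to 0.25, *Nr1h3* from -0.0013 to 0.12, *Scap* from -0.056 to 0.028 and *Mvd* from -0.067 to 0.051. With the mean of a gene's probe sets *Mvd* was 0.0089 and *Abca1* -0.081. The causes were not tested.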

Other observations

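Other cell types were described by marker lists in the same hearts. The endothelial list of 7 genes had a median difference of 0.16, the fibroblast list of 7 genes 0.05, and the 5 measured erythroid genes 0.02. None of these genes passed the adjusted threshold. The endothelial genes ran from -0.15 to 0.22 in *Tie1*, an endothelial receptor, with 3 of 7 negative. The fibroblast genes ran from -0.17 to 0.44 in *Col1a1*, a fibrillar collagen, with 2 of 7 negative. Hepatocyte and lung markers were at low levels. *Alb*, the albumin of hepatocytes, read 4.65 in wild-type and 4.45 in 2lox/2lox hearts, and *Sftpc*, a surfactant protein of the lung, 5.19 and 5.14. The medians were 0.04 over 5 hepatocyte, -0.06 over 5 lung, 0.04 over 4 thymocyte, -0.01 over 4 adipocyte and -0.04 over 2 glial genes. No gene of these lists passed.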
